A study of Mus musculus with 11 samples.

Results

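Ptch1, Gli1 and Hhip are the feedback targets of hedgehog signaling, and their RNA was followed through the differentiation of mouse embryonic stem cells into ventral hindbrain progenitors. The 3 genes were found by symbol among the 38197 genes of the deposited count table, and all 3 passed the filter on low counts in every comparison. Polyadenylated RNA was sequenced from wild type E14 cells of strain 129, grown in monolayer with RA (retinoic acid, a patterning signal of the hindbrain) and with SAG, a small molecule that switches on Smoothened. Unsorted cultures gave 2 libraries at each of days 0, 1, 2 and 3, and the day 0 libraries are titled as stem cells. A further 3 libraries came from progenitors sorted for Prominin-1, which neural progenitors carry on their surface. Their cell status gives day 3.5 and their source gives 3 days, and they are called day 3.5 sorted here.

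The labels state RA and SAG for days 0 to 3 and give no group with RA and without SAG, so the part of SAG in any change cannot be told apart from that of RA and of time. The sorted libraries also carry a different code in their column headers from the unsorted ones and hold fewer counts, so day, sort, header code and depth cannot be told apart. The labels do not say that the 2 libraries of each day are separate cultures, so p-values measure only the spread between these libraries. In bulk RNA, fewer cells of a type and less RNA per cell cannot be told apart.

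Hedgehog ligands such as Sonic hedgehog (Shh) bind Patched receptors on the cell surface and so free Smoothened, which works in the primary cilium. Smoothened then lets the GLI transcription factors act as activators, and without the signal Gli3 in particular is processed to a repressor. In the ventral neural tube Shh comes from the notochord and floor plate and sets out the progenitor domains. Ptch1 and Hhip are negative feedback: Ptch1 encodes the receptor that holds Smoothened off, and Hhip a membrane protein that binds and sequesters the ligands. Gli1 encodes an activator that depends on the pathway for its own transcription, and so adds positive feedback. All 3 are widely used as readouts of pathway activity.

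The 3 genes are protein coding and lie on the minus strand of GRCm38, the build named in the submitters' processing notes. In the GENCODE M21 annotation Ptch1 spans chr13:63508328-63573598, Gli1 spans chr10:127329882-127341974 and Hhip spans chr8:79965851-80058006. Exons of Gli1 overlap the coding gene Arhgap9 by 62 bases and the antisense gene Gm47200 by 265 bases, both on the plus strand. An exon of Hhip holds the 175-base misc_RNA gene Gm27820, also on the plus strand, and no exon of another gene overlaps an exon of Ptch1. Whether counting used the strand is not given, so reads from these stretches cannot be assigned with certainty. Of the 3 genes Gli1 has the most GC-rich longest transcript, at 59.03% against 47.76% in Ptch1 and 41.23% in Hhip.

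Because all 3 genes were higher at day 3 than at day 0, proximal promoters are shown. RefSeq windows on GRCm38.p6 reach from 250 bases before to 50 bases after the start, and 2 of the 3 genes had one; Gli1 did not. The stretches below are read on the minus strand, 5′ to 3′, and leave out the bases after the start site of the window. The Ptch1 stretch is chr13:63565736-63565985, which lies before the start of one Ptch1 transcript and within an intron of longer ones. The Hhip stretch is chr8:80058061-80058258, just before the RefSeq span of the gene, which starts farther upstream than the GENCODE one given above.Ptch1: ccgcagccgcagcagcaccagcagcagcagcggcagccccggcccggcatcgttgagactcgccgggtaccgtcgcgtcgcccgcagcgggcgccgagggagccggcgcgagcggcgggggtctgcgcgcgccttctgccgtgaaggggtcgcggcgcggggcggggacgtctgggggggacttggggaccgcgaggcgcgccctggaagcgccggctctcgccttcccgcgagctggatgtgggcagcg
Hhip: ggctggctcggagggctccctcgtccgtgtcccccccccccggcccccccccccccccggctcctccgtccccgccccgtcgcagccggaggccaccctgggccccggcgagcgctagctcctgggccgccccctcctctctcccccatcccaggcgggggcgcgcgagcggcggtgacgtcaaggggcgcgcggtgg
Both windows were rich in GC, with 76.3% in Ptch1 and 73.7% in Hhip against a median of 52.7% over all 32851 windows. The GLI-binding nonamer GACCACCCA (TGGGTGGTC on the other strand) had 0 exact matches in both windows, and 0 with at most 1 mismatch, so no letters are set in capitals. Of all windows 0.253% held an exact match and 6.74% one with at most 1 mismatch. The absence of these letters says nothing about the binding of a GLI protein.

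Totals ran from 26136331 to 30384599 counts in the unsorted libraries and from 13173674 to 17113430 in the sorted ones. Markers followed the labels for the most part: 5 pluripotency genes summed to 992 to 1048 CPM (counts scaled to a fixed library total) in stem cells, 106 to 168 at day 1 and 3.47 to 6.74 in the sorted libraries. A sum of 7 neural progenitor genes was 1764 to 1970.4 CPM in the sorted libraries and 1287 to 1333 CPM at day 3. Prom1 itself was at 281 to 334 CPM in the sorted libraries against 214 to 262 at day 3. Of this list only Sox1 and Pax6 had lower means than at day 3 (60.9 against 77.5 and 34.7 against 39.1 CPM). The sorted progenitors also held 5 neuronal markers at a summed 668 to 1069.6 CPM, a range that takes in that of day 3 (693 to 787 CPM). The 2 day 3 libraries stood apart from each other, with 6 floor plate markers at 2318 CPM in replicate 1 and 1207 in replicate 2. Of the other cell types in the lists, 6 extraembryonic endoderm markers summed to 81.7 to 182 CPM in the unsorted libraries. There 4 fibroblast markers summed to 38.7 to 87.3 CPM, mostly from Pdgfra (means from 29.3 CPM at day 1 to 56.3 CPM at day 3). Mesoderm markers summed to at most 32.2 CPM, at day 1, where Meox1 went from a mean of 4.09 to 31.6 CPM; Msgn1 was at 0 in every library. The neuron list summed to 311 to 345 CPM in the stem cells, mostly from Stmn2 (mean 311 CPM). The part of these cell types in the changes below was not tested.

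Ptch1 RNA was at 28.3 and 26.1 CPM at day 0, scaled here with edgeR's TMM factors. The day 1 libraries had 74.0 and 104 CPM, those of day 2 had 515 and 466, and those of day 3 had 452 and 458. The sorted libraries had 355, 467 and 489 CPM. The libraries of days 0, 1 and 2 did not overlap, and every library from day 2 on lay above every library of days 0 and 1. From the lowest mean up, the order was day 0, day 1, day 3.5 sorted, day 3 and day 2, and the sorted libraries overlapped those of day 3 and of day 2.

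Gli1 RNA was low on both of the first days. The stem cells had 6.60 and 3.47 CPM and the day 1 libraries 5.52 and 9.63 CPM, so the libraries of these days overlapped. At day 2 it was at 76.4 and 77.1 CPM, a close pair above every other library. Replicates parted at day 3, with 42.1 and 70.7 CPM, and in the sorted libraries, with 36.5, 67.8 and 71.5 CPM. The order of the means was day 0, day 1, day 3, day 3.5 sorted and day 2, and neither of the pairs day 0 and day 1 nor day 3 and day 3.5 sorted was separated.

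Hhip RNA was close to absent in the stem cells, with 10 and 15 counts at day 0, or 0.340 and 0.642 CPM. The day 1 libraries had 9.20 and 7.10 CPM, day 2 gave 20.1 and 18.4, and day 3 gave 23.4 and 31.0. The sorted libraries had 32.3, 34.6 and 32.3 CPM. Of the 3 genes Hhip alone had each group mean above the one before, and no neighbouring groups overlapped. The last steps were small and did not pass the tests below.

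**Figure D1:**
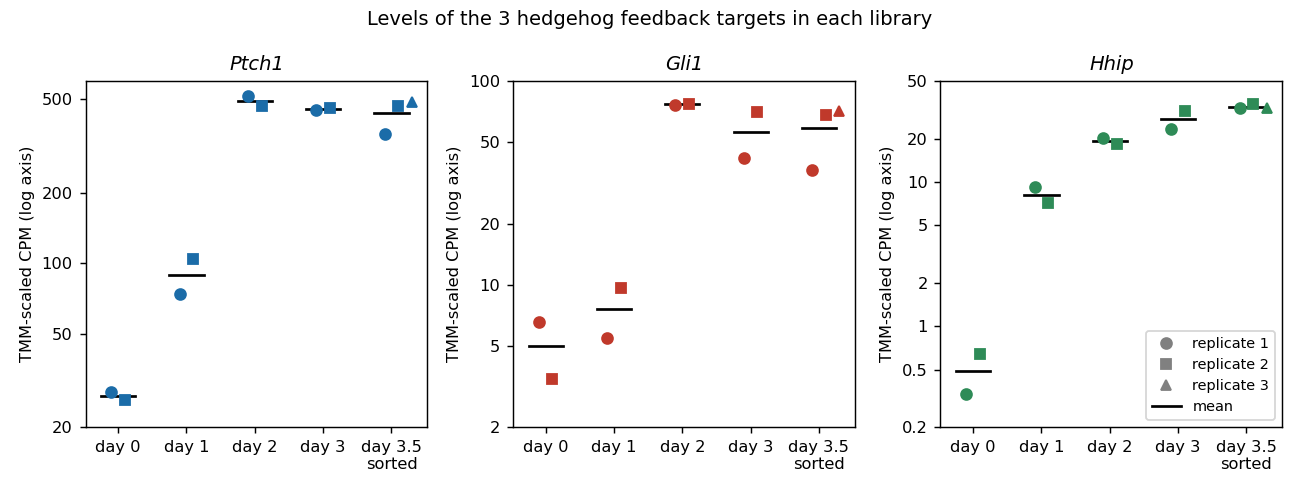
Level of Ptch1, Gli1 and Hhip in each of the 11 libraries, in TMM-scaled CPM on a log axis. Points are libraries, marked by replicate, and the black line is the group mean. Ptch1 lies at 355 CPM or more from day 2 on, Gli1 reaches no more than 9.63 CPM through day 1, and Hhip climbs from 0.340 CPM to 34.6 CPM.

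Levels of different genes were compared per transcript length, with the deposited FPKM values. Ptch1 was the most abundant of the 3 genes at each day, with mean FPKM of 4.32, 16.2, 88.2 and 84.4 at days 0 to 3 and 78.2 in the sorted libraries. Gli1 had 0.924, 1.57, 16.0, 12.0 and 12.2 FPKM in the same order. Hhip had 0.0885, 1.92, 5.44, 9.52 and 9.83 FPKM. In every library Ptch1 exceeded Gli1 in FPKM, by 3.70-fold to 12.2-fold. Gli1 exceeded Hhip in all libraries but 2, which were day 1 replicate 1 with an FPKM ratio of 0.535 and day 3.5 sorted replicate 1 with 0.824.

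On the first day of differentiation the genes of both membrane inhibitors rose, and that of the transcription factor did not pass the test. Hhip rose by 4.07 ± 0.36 (SE) on the log2 scale between day 0 and day 1 (16.8-fold, adjusted p = 0.000252), and Ptch1 rose by 1.71 ± 0.19 (3.27-fold, adjusted p = 0.000688), by edgeR's quasi-likelihood test with Benjamini-Hochberg adjustment over 16810 genes. The Gli1 difference was 0.58 ± 0.38 (adjusted p = 0.308 in edgeR), with a 95% interval from -0.27 to 1.44. It overlaps the interval of Ptch1, from 1.29 to 2.13. A difference between Ptch1 and Gli1 at this step was not tested by itself, and their ratio over the days did not pass (below). Thus 2 of the 3 genes were called higher, where 12.0% of all genes tested were called higher, 8.91% lower and 20.9% in either direction. Hhip was among the largest changes, with 140 genes above it in log2 fold change, and Ptch1 had 1088 above it. On the log2(FPKM + 1) scale, which understates changes of low genes, the Hhip change was 1.42 and still passed limma's test (adjusted p = 0.00669).

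Between day 1 and day 2 all 3 genes rose, where 9.65% of all genes were called higher, 9.99% lower and 19.6% in either direction. Gli1 now changed the most, by 3.34 ± 0.39 on the log2 scale (10.1-fold, adjusted p = 0.000741 in edgeR), and 198 genes had a larger log2 fold change. Ptch1 rose by 2.47 ± 0.19 (5.53-fold, adjusted p = 0.000128). Hhip rose by 1.24 ± 0.28 (2.37-fold, adjusted p = 0.0157), but this call was lost without day 2 replicate 1 (1.19, adjusted p = 0.112) and without day 2 replicate 2 (1.31, adjusted p = 0.0722). Comparisons of adjoining days share the libraries of the day between them, so a low value at day 1 raises one step and lowers the other.

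Libraries differed in a trend along GC content, and Gli1 is GC-rich. At the GC content of Gli1 this trend was -0.07 and -0.83 on the log2 scale in the day 0 libraries and -0.72 and 0.13 in those of day 1. It was 0.29 and 0.48 in the day 2 libraries and 0.51 and 0.26 in those of day 3. With the trend taken out as an offset, the Gli1 rise from day 1 to day 2 was 2.72 (adjusted p = 0.000177 in edgeR), and the rise from day 0 to day 3 was 2.75 (adjusted p = 3.7e-05). The Gli1 difference at the first day was then 0.43 (adjusted p = 0.280).

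From day 2 to day 3 none of the 3 genes passed the test. The difference was -0.11 on the log2 scale for Ptch1 (95% interval -0.51 to 0.30), -0.44 for Gli1 (-1.24 to 0.35) and 0.50 for Hhip (-0.12 to 1.12), with adjusted p of 0.794, 0.537 and 0.346 in edgeR. This step called few genes at all, with 2.81% of those tested higher, 1.26% lower and 4.07% in either direction. At an unadjusted p of 0.05, edgeR called 0 of the 3 and DESeq2 also 0, while limma on log2(FPKM + 1) and edgeR with the GC offset each called 1, Hhip. The intervals leave room for a moderate fall of Gli1 or a moderate rise of Hhip.

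Over the whole course, from day 0 to day 3, Hhip rose the most, by 5.81 ± 0.37 on the log2 scale (56.3-fold, adjusted p = 6e-06 in edgeR). Ptch1 rose by 4.07 ± 0.20 (16.8-fold, adjusted p = 2.31e-06) and Gli1 by 3.48 ± 0.40 (11.2-fold, adjusted p = 0.000121). This comparison called 27.6% of all genes higher, 26.3% lower and 53.9% in either direction, so a call by itself sets the 3 genes little apart. Their size was less common: 1.77% of genes had a larger log2 fold change than Hhip, 3.79% than Ptch1 and 5.15% than Gli1. A test of any change over days 0 to 3 gave adjusted p of 3.72e-06 for Ptch1, 9.74e-05 for Gli1 and 2.15e-05 for Hhip (edgeR), where 53.7% of all genes were called.

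**Figure D2:**
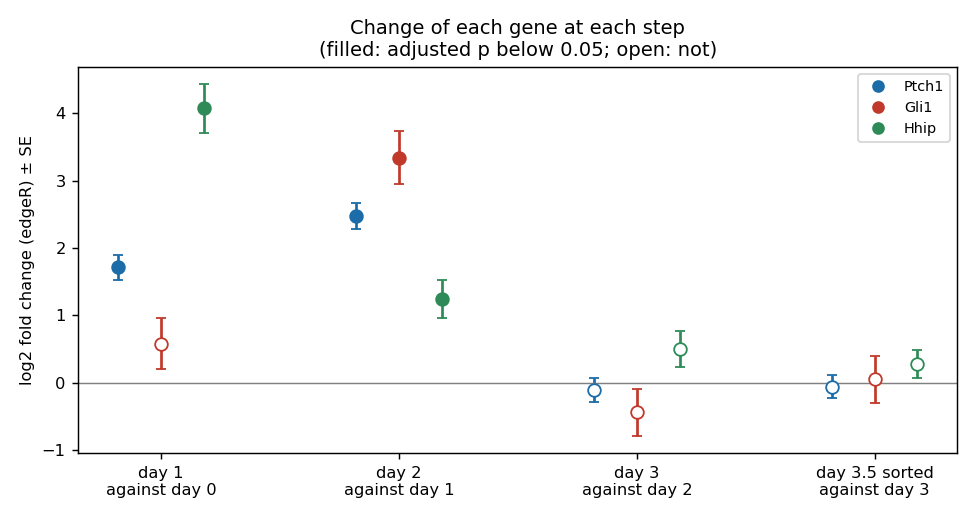
Log2 fold change of each gene at each step, with its standard error, from edgeR. Filled points passed an adjusted p of 0.05 and open points did not: Hhip and Ptch1 passed at the first step, all 3 genes at the second, and none at the last 2.

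The Prominin-1 sorted progenitors held the 3 genes at levels not told apart from those of unsorted day 3 cultures. The difference, sorted minus day 3, was -0.06 on the log2 scale for Ptch1 (95% interval -0.43 to 0.32), 0.05 for Gli1 (-0.71 to 0.82) and 0.28 for Hhip (-0.18 to 0.75). Adjusted p was 0.928, 0.973 and 0.577 in edgeR, 0 of the 3 passed at an unadjusted p of 0.05 in edgeR, DESeq2 or limma, and 3.37% of 17006 genes tested were called, 0.435% higher and 2.93% lower. The sign for Gli1 turned under several settings (-0.28 without day 3 replicate 1), and the Ptch1 difference was 0.07 without sorted replicate 1, which had the lowest Ptch1 and Gli1 of its group. Between these groups the summed extraembryonic endoderm markers differed, at 142 to 182 CPM in day 3 and 34.4 to 40.1 CPM in the sorted libraries. The fibroblast sum differed too, at 63.1 to 87.3 CPM in day 3 and 14.8 to 24.3 CPM in the sorted libraries. Most of that difference was Pdgfra, with means of 56.3 CPM at day 3 and 8.80 CPM in the sorted libraries. Col3a1 had means of 11.4 and 8.74 CPM and Col1a1 of 7.20 and 3.20 CPM, so the sum does not by itself show fibroblasts. The part of these cell types in the values of the 3 genes was not tested.

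Since the 3 genes read one pathway, their ratios within a library show whether they moved in step. A ratio does not depend on how libraries are scaled, but the GC trend above does not cancel in it, so the values with that trend removed, an alternative added after seeing the data, are given beside each. The log2 ratio of Ptch1 to Hhip counts was 6.31 and 5.30 in the stem cells and dropped to 3.01 and 3.87 on day 1. The day 2 libraries had 4.68 and 4.66, and those of day 3 had 4.27 and 3.89. Thus Hhip gained on Ptch1 at the first day, Ptch1 regained part of this at the second, and the day 0 libraries lay above all others. The ratio differed between days 0 to 3 in an exact permutation test over all 2520 assignments of the 8 libraries (p = 0.00952, adjusted p = 0.0143 over 3 pairs), where 0.00952 is the smallest p this design allows. With the GC trend removed it was 6.25 and 5.49 in the stem cells, then 3.21 and 3.82 (day 1), 4.62 and 4.55 (day 2) and 4.16 and 3.86 (day 3) (exact permutation p = 0.00952, adjusted p = 0.0286).

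The log2 ratio of Gli1 to Hhip counts followed the same course with larger steps. It was 4.21 and 2.39 in the stem cells, then -0.74 and 0.44 on day 1. The day 2 libraries had 1.93 and 2.07, and those of day 3 had 0.85 and 1.19. At day 1 replicate 1 Hhip thus had more counts than Gli1. With the GC trend removed the ratio was 4.24 and 3.52 in the stem cells, then 0.29 and 0.27 (day 1), 1.56 and 1.42 (day 2) and 0.14 and 0.89 (day 3), so the libraries of day 1 were then close together and that of day 3 replicate 1 was the lowest (exact permutation p = 0.0286, adjusted p = 0.0429). The ratio of the counts as deposited also differed between days (exact permutation p = 0.00952, adjusted p = 0.0143), and it was 0.18, 0.97 and 1.15 in the sorted libraries. Neither ratio with Hhip kept its call when day 1 replicate 1, either day 2 library or either day 3 library was left out.

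The ratio of Ptch1 to Gli1 spanned the narrowest range of the 3. Its log2 value was 2.10 and 2.90 in the stem cells and 3.74 and 3.43 on day 1. The day 2 libraries had 2.75 and 2.59, and those of day 3 had 3.42 and 2.69. The day 1 libraries were the highest, and the days did not pass the exact permutation test (p = 0.238, adjusted p = 0.238). This order depended on the GC trend: with it removed the ratio was 2.02 and 1.97 in the stem cells, then 2.92 and 3.56 (day 1), 3.07 and 3.13 (day 2) and 4.01 and 2.97 (day 3), so the day 0 libraries lay below all others and day 1 was no longer the highest. The days did not pass the test then either (exact permutation p = 0.133, adjusted p = 0.133). As deposited, the counts of the sorted libraries gave 3.28, 2.78 and 2.77, within the range of the unsorted ones.

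**Figure D3:**
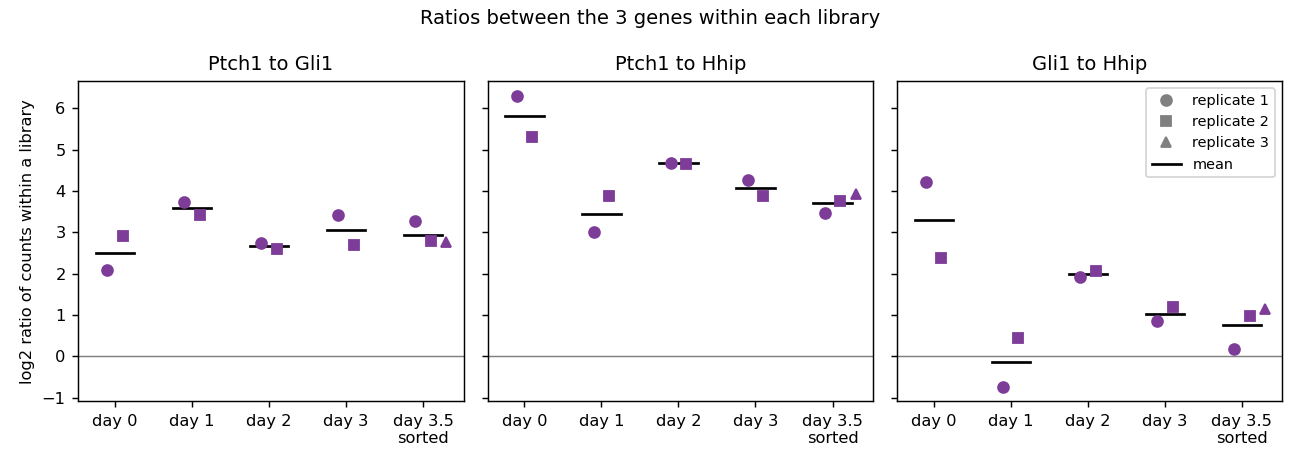
Log2 ratio of the counts of each pair of genes within each library, by day, with replicates marked and the group mean as a line. The ratios of Ptch1 and Gli1 to Hhip drop from day 0 to day 1 and go back up in part at day 2, and the Ptch1 to Gli1 ratio stays between 2.10 and 3.74. The GC trend is not removed here.

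Of the ligand genes, Shh and Ihh rose at the second step, and Dhh did not pass. Ihh, named like Dhh after its values were seen, stayed low, with means of 0.352 CPM at day 1 and 1.60 CPM at day 2 (adjusted p = 0.0227 in edgeR). Shh had 3 and 4 counts in the stem cells (0.102 and 0.171 CPM) and 12 and 27 counts on day 1 (0.433 and 0.844 CPM), libraries that did not overlap, with a difference of 2.25 ± 0.95 on the log2 scale that did not pass (adjusted p = 0.126 in edgeR). The day 2 libraries had 50.8 and 26.4 CPM, and those of day 3 had 279 and 114 CPM. Its rise from day 1 to day 2 was 5.89 ± 0.58 on the log2 scale (adjusted p = 0.000297 in edgeR), in the same comparison in which all 3 feedback targets rose. At day 1, when Ptch1 and Hhip were already higher, the mean of Shh was 0.639 CPM. Within day 3 the library with more Shh, replicate 1, had less Gli1 (42.1 against 70.7 CPM) and less Hhip (23.4 against 31.0 CPM), with Ptch1 nearly equal. No other group showed this order for both Gli1 and Hhip, though parts of it recurred. At day 2 replicate 1 had more Shh (50.8 against 26.4 CPM) with more Ptch1 (515 against 466 CPM). It also had slightly more Hhip (20.1 against 18.4 CPM) and like Gli1 (76.4 and 77.1 CPM). Among the sorted libraries replicate 3 had the most Shh (263 CPM), Ptch1 (489 CPM) and Gli1 (71.5 CPM). Sorted replicate 2 had the least Shh (195 CPM) and the most Hhip (34.6 CPM). Day 1 replicate 2 had more Shh with less Hhip (7.10 against 9.20 CPM) but more Gli1 (9.63 against 5.52 CPM). Day 0 replicate 2 had more Shh, on 4 counts against 3, with less Gli1 (3.47 against 6.60 CPM) but more Hhip (0.642 against 0.340 CPM). Day 3 replicate 1 also had the higher floor plate sum, less Olig2 (14.9 against 45.1 CPM) and less Pax6 (12.3 against 65.9 CPM). With so few libraries on each side this is a description, and the part of cell makeup was not tested.

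The other genes of the pathway were taken from lists chosen for their roles. Over all lists, counting each gene once, day 1 had 15 of 50 tested genes higher and 2 lower than day 0, with a median log2 fold change of 0.48 against 0.01 over all genes, of which 12.0% were called higher and 8.91% lower. Without day 0 replicate 2 the sum of these calls was 9 instead of 17. At day 2, 26 of 50 were higher than at day 1 and 0 lower, with a median of 1.03 against -0.003 over all genes, of which 9.65% were called higher and 9.99% lower. This fell to 16 when day 1 replicate 1 was left out, to 17 when it was day 2 replicate 1 and to 14 when it was day 2 replicate 2. DESeq2 also called 0 of these genes lower at day 2. From day 0 to day 3, 35 of the 50 were higher and 1, the ligand gene Dhh (chosen after its values were seen), lower, with a median of 1.29 against 0.02 over all genes, of which 27.6% were called higher and 26.3% lower; without day 3 replicate 1 no gene was called lower, and 2 were without day 0 replicate 2 or day 3 replicate 2.

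Among 8 genes for ligands and their release, 1 was higher at day 1 and 5 at day 2, with none lower. Of all genes 12.0% were called higher and 8.91% lower at day 1, and 9.65% and 9.99% at day 2. Thus 1 of 8 is about the share of all genes called higher at day 1. Scube1, one of the secreted proteins that help to release the ligand, rose at both steps, from 0.814 to 3.02 and 30.0 CPM (adjusted p = 0.0195 and 0.000801 in edgeR). Its relatives Scube2 and Scube3 passed at day 2, with log2 fold changes of 1.49 and 1.70. Of 5 receptors and co-receptors, 4 were higher at day 1 and 3 at day 2. The co-receptors Gas1 and Boc rose at both steps, Gas1 by 1.99 and 1.03 and Boc by 1.16 and 1.97. Cdon, a further co-receptor, rose at day 1 by 1.27. Smo, which encodes Smoothened, the target of SAG, rose at day 2 by 1.07 ± 0.23 (adjusted p = 0.0127), after 0.72 ± 0.23 at day 1 (adjusted p = 0.0535). The receptor count at day 1 was 2 without day 0 replicate 2, and at day 2 it was 1 without day 1 replicate 1 or either day 2 library. The ligand count at day 1 was 0 without day 0 replicate 2 or day 1 replicate 2 and 2 without day 0 replicate 1, and at day 2 it was 3 without day 2 replicate 2.

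Of 12 mediators, 4 were higher at day 1 and 4 at day 2, where 12.0% and 9.65% of all genes were. None was lower, where 8.91% and 9.99% of all genes were, which says little in a list of 12. Gpr161, a ciliary receptor that restrains the pathway, rose at both steps by 1.33 and 1.26. Adrbk2, also named Grk3, encodes a kinase of the G protein-coupled receptor kinase family and rose by 1.63 at day 1. Gli2 and Gli3 encode the GLI factors through which the signal first acts. Gli2 rose at day 2 by 1.71 (adjusted p = 0.00704), and Gli3 rose at day 2 by 0.76 (adjusted p = 0.0447) and fell at day 3 by 1.09 (adjusted p = 0.0346). The day 1 count was 2 without day 0 replicate 2. The day 2 count was 1 without day 1 replicate 1 or day 2 replicate 1 and 0 without day 2 replicate 2. Among 8 cilium components, Kif3a was higher at day 1 by 0.79 and Ift172 at day 2 by 0.71, and no other gene of this list passed at these steps, so its counts are about those of all genes. The Kif3a call was lost without day 0 replicate 1 or day 1 replicate 1, and no cilium gene was called higher at day 2 without day 1 replicate 1 or either day 2 library.

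Of 8 other hedgehog targets, 3 were higher and 2 lower at day 1, and 1 was higher without either day 0 library. Of all genes, 12.0% were called higher and 8.91% lower at this step. The higher targets were Nkx6-1, Olig2 and Foxa2, a floor plate transcription factor that went from 1.81 to 8.98 CPM (adjusted p = 0.00260 in edgeR). Both of the others rested on few counts. Olig2 had 1 count in each day 0 library and 20 in each day 1 library, and Nkx6-1 had 8 and 5 counts, then 15 and 25. The lower ones, which like Foxa2 were chosen after their values were seen, were Mycn, which fell by 2.47 on the log2 scale, and Ccnd1, which fell by 1.99; both act in proliferation and have other inputs. At day 2 all 8 were higher, with a median log2 fold change of 3.86, and 8 were so when any library of days 1 and 2 was left out. Of all genes, 9.65% were called higher and 9.99% lower at day 2. The ventral transcription factor Nkx6-1 went from 0.661 to 64.6 CPM (adjusted p = 1.12e-05 in edgeR). Olig2, of motor neuron progenitors, went from 0.674 to 32.6 CPM (adjusted p = 0.000275 in edgeR). Nkx2-9 went from 0.474 to 12.9 CPM, and Nkx2-2, of the most ventral progenitors next to the floor plate, from 3 and 2 counts at day 1 to 1.64 CPM at day 2. Nkx2-2 rose again at day 3, to 11.9 CPM (adjusted p = 0.0142 in edgeR), a call that was lost without day 2 replicate 2 or day 3 replicate 1.

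Genes of dorsal or intermediate progenitors, many of which hedgehog signaling restrains in the embryo, were also counted. Of 9 such genes, 2 were higher at day 1 and 5 at day 2, where 12.0% and 9.65% of all genes were. None was called lower, where 8.91% and 9.99% of all genes were, a share that is under 1 gene in a list of this size. The first count was 1 when any 1 library of days 0 and 1 was left out, and the second was 2 without day 1 replicate 1 or day 2 replicate 2 and 3 without day 2 replicate 1. Pax6 rose at day 1 from 5.67 to 53.9 CPM (adjusted p = 0.0107), Msx1 at day 2 from 0.920 to 12.2 CPM (adjusted p = 0.00277), and Zic1 and Irx3 at day 2 by 3.34 and 2.10 on the log2 scale. Msx1 then fell at day 3 by 3.28 (adjusted p = 0.0182). Over all lists the step from day 2 to day 3 had 3 higher genes, Shh, Nkx6-1 and Nkx2-2, and 2 lower ones, Gli3 and Msx1, where 2.81% of all genes were higher and 1.26% lower; leaving out day 2 replicate 2 or day 3 replicate 1 left 0 calls, and leaving out day 2 replicate 1 left 2. In the sorted libraries 0 of 49 genes were higher than at day 3 and 3 were lower, against 0.435% and 2.93% of all genes. These were Scube2, Ihh and Lrp2, the last 2 chosen after their values were seen, and 1 of the 3 passed without day 3 replicate 1.

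**Figure D4:**
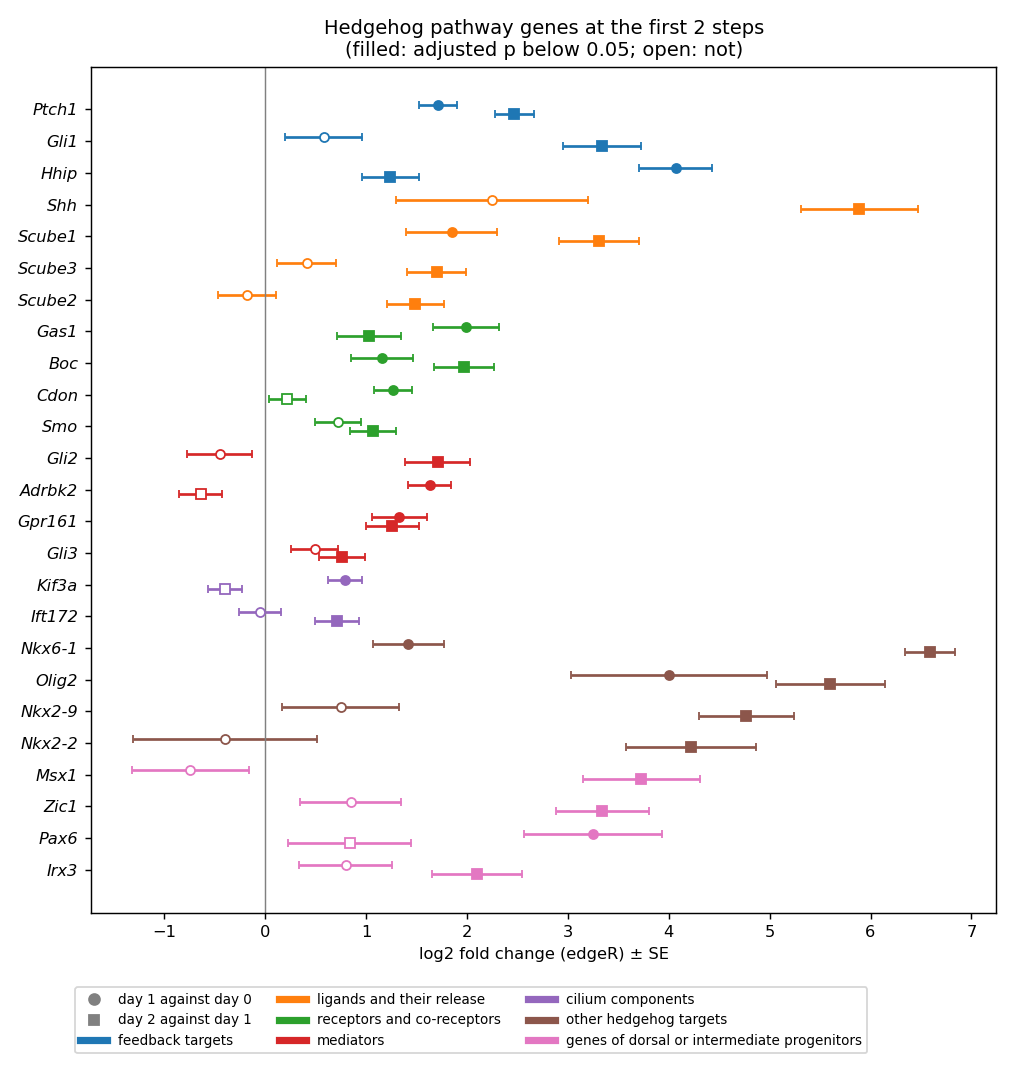
Log2 fold change with its standard error for the 3 feedback targets and the named genes of each list, from day 0 to day 1 (circles) and from day 1 to day 2 (squares), coloured by list; filled points passed an adjusted p of 0.05 in edgeR. Most named targets pass at the second step. Values of Shh, Olig2, Nkx2-2, Nkx2-9 and Nkx6-1 at the first step rest on 1 to 5 counts in a day 0 library and depend on the fit's prior count.

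Each of the 3 genes was compared with 11216 genes by Pearson's r of log2 CPM over the 11 libraries, which share their days, so that any gene with the same course has a high r. The highest for Ptch1 were Aco1 (r = 0.996, Spearman's rho 0.882), Kank1, Zfp521, Fignl2 and Sh3rf1, of which the last had r = 0.993 and rho 0.718. For Gli1 they were Cbx2 (r = 0.987, rho 0.918), Rbm15b, Kctd15, Ankrd52 and Emid1 (r = 0.982, rho 0.945). For Hhip they were Foxa1 (r = 0.997, rho 0.964), Plxna2, Fads1, Map2k6 and Fam211a (r = 0.992, rho 0.900). Foxa1, a forkhead transcription factor of the ventral midline among other tissues, ran beside Hhip at 0.875, 13.5, 30.7 and 44.8 CPM at days 0 to 3 and 55.3 CPM in the sorted libraries.

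By neither measure were the 3 genes each other's closest matches. Ptch1 and Gli1 had r = 0.964 (rho 0.918), which put Ptch1 at rank 75 by r for Gli1 and Gli1 at rank 237 by r for Ptch1. By rho Gli1 was much nearer to Ptch1, at rank 20, ahead of the 5 genes named for Ptch1. Ptch1 and Hhip had r = 0.940 (rho 0.682), with Hhip at rank 577 by r for Ptch1. Gli1 and Hhip were the least alike, with r = 0.831 (rho 0.527), and Hhip was at rank 1783 by r for Gli1. Over the 8 unsorted libraries alone r was 0.959, 0.930 and 0.803 for these pairs.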

How the data were processed

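Polyadenylated RNA was measured in 11 libraries, and the depth of each is the total of its column. The authors deposited expected counts per gene symbol (38093 genes whole, 104 with fractions, rounded here), log2 values and FPKM values. The deposited log2 values equal log2 CPM recomputed from the counts, with a largest difference of 5.15e-14. Without stating roles, the submitters' processing notes name limma, HTSeq 0.6.1, TopHat2 2.0.4 and Cufflinks 2.1.1, and the builds mm10 and GRCm38. For annotation and strand setting, nothing is given in the sources used here. All columns matched a library by the labels' descriptions, and 0 were left over. Descriptions of the unsorted libraries hold the word Nondiff, and those of all libraries the word Control. The titles of the unsorted libraries give stem cells or a day instead, and the titles were followed here.

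The test was that of edgeR 4.0.16 in R 4.3.3 (TMM, filterByExpr with a minimum count of 10, quasi-likelihood test, Benjamini-Hochberg over all genes, threshold 0.05). Days 0 to 3 were fitted on 8 libraries and day 3.5 sorted against day 3 on all 11, as group means without a replicate block. Ratios of members used counts plus 0.5 and an exact permutation test. Replicates differed beyond sampling noise, with a chi-square per gene of 10.6 to 64.1.

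The members and gene lists were chosen with earlier results of these data known, and 1 gene of the lists is not reported here. Named list genes reached 5 CPM on some day and were called at the first or second step, at most 4 per list by size of change, plus Shh and Smo; the 5 genes with the highest r were named for each member. Other settings were RLE factors, no filter, DESeq2 1.42.0, other libraries in the fit, a replicate block, limma 3.58.1 on log2(FPKM + 1) or log2(FPKM + 0.1) with and without an FPKM of at least 1 in 2 libraries, limma on the deposited log2 values, a GC offset (lowess span 0.3, 92.8% of tested genes with a value), and leaving out each library in turn. The fits were tested on simulated data.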

Additional observations from a re-analysis of the deposited data

How the results depend on the processing

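Of the 3 genes, depth limits Hhip at day 0 most, with 10 and 15 counts. Every rise of Ptch1, Gli1 and Hhip called between days kept its call under each setting run, except Hhip from day 1 to day 2, whose adjusted p was 0.112 and 0.0722 (log2 fold change 1.19 and 1.31) without a day 2 library; over the libraries left out its change ran from 1.07 to 1.44. On the log2(FPKM + 1) scale the Hhip rise from day 0 to day 3 was 3.26 instead of 5.81. The Gli1 difference at day 1 ran from 0.12 to 1.13 over the settings and never passed. Tests of any change over days 0 to 3, and mean CPM by RLE factors or library totals, were added after seeing the data, as were ratios without the GC trend, and all tests of any change passed.

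Whether the replicate numbers pair the libraries is not stated. Correlations of the replicate differences between days, which cannot settle this, were -0.449, -0.115, 0.179, 0.181, -0.225 and 0.081. The replicate block changed no call of the 3 genes, took the number of genes called from 684 to 393 for day 3 against day 2 and from 573 to 266 for sorted against day 3, and turned Gli1 in the last to -0.12. That Gli1 difference, 0.05 in the main fit, was also -0.0038 with log2(FPKM + 1), filtered or not, and -0.01 with log2(FPKM + 0.1) and with the deposited log2 values; leaving out a library gave -0.28 to 0.47, and -0.14 to 0.07 for Ptch1. The causes were not tested.

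Settings that moved the number of genes called by over 1.5 times, beside the replicate block above, were as follows. For libraries left out the whole range is given, whether or not each value moved that far. For day 1 against day 0 (3513), log2(FPKM + 1) gave 2285 filtered and 2227 unfiltered, the GC offset 5851, and libraries left out 2180 to 2616. For day 2 against day 1 (3302), log2(FPKM + 1) gave 2194 and 2166, log2(FPKM + 0.1) 2117, and libraries left out 1001 to 4281. For day 3 against day 2 (684), no filter gave 1608, DESeq2 1474, other libraries in the fit 1431, log2(FPKM + 1) 222 and 262, log2(FPKM + 0.1) 89, deposited log2 values 448, the GC offset 2451, and libraries left out 13 to 523. For sorted against day 3 (573), no filter gave 993, DESeq2 978, log2(FPKM + 1) 265 and 263, log2(FPKM + 0.1) 355, the GC offset 1.2e3, and libraries left out 184 to 469.

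Calls over the pathway lists moved likewise. They were 8 with unfiltered log2(FPKM + 1) for day 1 against day 0 (17), and 9 to 13 over libraries left out. For day 2 against day 1 (26) they were 12 with unfiltered log2(FPKM + 1) and 14 to 26 over libraries left out. For day 3 against day 2 (5) they were 13 with no filter, 11 with DESeq2, 8 with other libraries, 16 with the GC offset, 2 with log2(FPKM + 1) and with deposited log2 values, 0 with log2(FPKM + 0.1) and with unfiltered log2(FPKM + 1), and 0 to 6 over libraries left out. For sorted against day 3 (3) libraries left out gave 1 to 4. The adjusted p of both ratios with Hhip ran from 0.0143 to 0.129 over libraries left out, and removing the GC trend changed no call of a ratio.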
